A study of Homo sapiens with 4 samples.

Results

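Metallothioneins are short, cysteine-rich proteins that bind zinc, copper and cadmium, and the genes described here are 8 of them (MT1A, MT1E, MT1F, MT1G, MT1H, MT1M, MT1X and MT2A) with MTF1, the zinc-sensing transcription factor that switches them on, and SLC30A1, the zinc exporter of the plasma membrane. They were chosen by gene symbol: a gene counted as measured where a probe set of the array carried that symbol alone. Of the 10 genes, 9 were measured out of 22395 named genes on 53617 probe sets, each by 1 probe set. No probe set carried the symbol MT1A in the annotation used, and MT1A was not analysed here, which leaves 7 metallothioneins. The metallothionein genes are close copies in 1 cluster on chromosome 16, so a metallothionein probe set may also take up transcripts of another member.

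RNA came from Huh7, a human hepatocellular carcinoma line, transfected either with pcFLAG-hSTYK1, a plasmid that carries human STYK1, or with the plasmid pcFLAG as the control. STYK1 is a receptor-like protein kinase. There were 2 STYK1 arrays and 2 control arrays of biotin-labelled, whole-transcript RNA, and the time after transfection and the share of cells transfected are not given in the labels. Values are log2 signals, in which 1 unit is a doubling. STYK1 itself read 7.40 and 7.86 in the STYK1 arrays, against 0.26 and 0.61 in the control arrays.

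When free zinc rises, MTF1 enters the nucleus and binds metal response elements, short motifs in the promoters of metallothionein genes and of SLC30A1. Metallothioneins then hold the metal in clusters of thiolates while SLC30A1 moves zinc out of the cell. In liver cells metallothionein genes are also induced by glucocorticoids and by the cytokine IL6 during the acute phase response.

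Promoter windows were read for the element through which MTF1 acts. They were taken from RefSeq (GRCh38.p14) as windows of 300 bases, 250 before and 50 after the transcription start, and such a window was held for 5 of the 10 genes: MT1X, MT2A, MT1H, MTF1 and SLC30A1. Each was searched on both strands for the core of the metal response element, TGCACNC or TGCGCNC. The lines below are written 5′ to 3′ on the gene's strand with each core, on either strand, in capitals. They cover chr16:56682220-56682519 (plus strand) for MT1X, chr16:56608334-56608633 (plus strand) for MT2A, chr16:56669564-56669863 (plus strand) for MT1H and chr1:211579112-211579411 (minus strand) for SLC30A1.
MT1X: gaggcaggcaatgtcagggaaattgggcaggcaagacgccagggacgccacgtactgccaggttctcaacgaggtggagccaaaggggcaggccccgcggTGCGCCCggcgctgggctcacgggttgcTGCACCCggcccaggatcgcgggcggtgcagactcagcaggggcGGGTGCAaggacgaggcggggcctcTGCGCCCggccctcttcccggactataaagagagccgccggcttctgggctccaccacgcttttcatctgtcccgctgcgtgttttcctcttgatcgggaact
MT2A: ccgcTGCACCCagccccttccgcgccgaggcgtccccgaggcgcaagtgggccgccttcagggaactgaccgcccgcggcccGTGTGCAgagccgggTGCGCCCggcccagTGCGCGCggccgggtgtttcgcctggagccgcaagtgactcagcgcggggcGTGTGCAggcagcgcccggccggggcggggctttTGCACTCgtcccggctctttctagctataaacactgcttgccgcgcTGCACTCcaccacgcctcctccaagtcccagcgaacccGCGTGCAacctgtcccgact
MT1H: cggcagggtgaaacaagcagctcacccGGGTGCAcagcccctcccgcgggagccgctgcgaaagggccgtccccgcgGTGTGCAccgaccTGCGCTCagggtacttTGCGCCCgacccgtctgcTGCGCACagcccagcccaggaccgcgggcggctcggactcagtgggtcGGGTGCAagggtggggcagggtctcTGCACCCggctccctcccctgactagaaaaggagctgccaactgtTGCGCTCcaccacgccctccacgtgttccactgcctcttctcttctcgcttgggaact
SLC30A1: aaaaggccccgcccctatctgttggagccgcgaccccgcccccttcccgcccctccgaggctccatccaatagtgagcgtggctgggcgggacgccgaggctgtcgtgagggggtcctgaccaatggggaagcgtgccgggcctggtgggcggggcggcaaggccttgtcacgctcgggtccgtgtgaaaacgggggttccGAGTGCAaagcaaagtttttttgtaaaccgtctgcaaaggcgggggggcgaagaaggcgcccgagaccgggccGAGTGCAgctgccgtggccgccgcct

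The MT2A window held 8 cores, the MT1H window 8, the MT1X window 4 and the SLC30A1 window 2, and no cores overlapped. The MTF1 window held 0. Of 27305 RefSeq promoter windows of this length, 29.3% held at least 1 core, 8.59% at least 2, 0.593% at least 4 and 0.022%, or 6 windows, at least 8. Those 6 include MT2A and MT1H. A core on the gene's strand lay at -53 to -47 from the start in MT1X and MT1H and at -54 to -48 in MT2A, and one on the opposite strand at -78 to -72 in both MT1X and MT1H. Both cores of SLC30A1 lay on the opposite strand, at -49 to -43 and at 25 to 31. A match of letters is a description of the window and not a measured binding site.

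**Figure D1:**
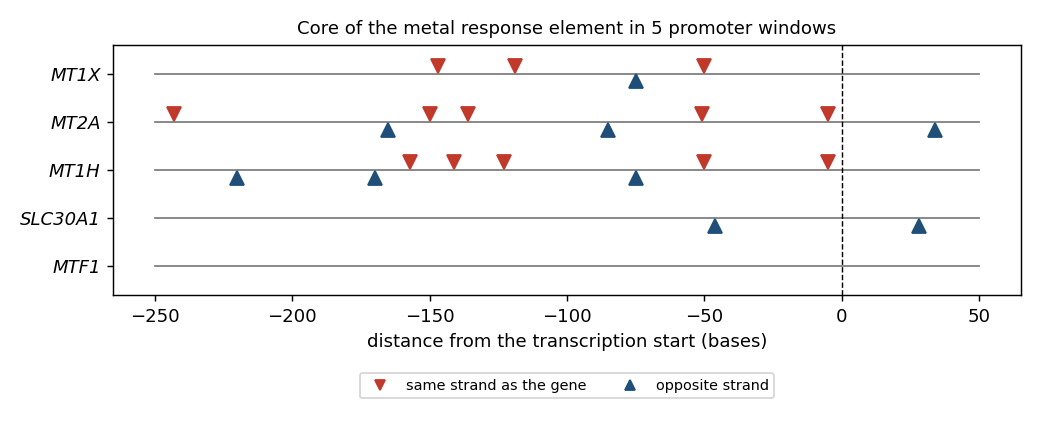
Position of each core of the metal response element (triangles, pointing down on the gene's strand and up on the opposite strand) in the RefSeq windows of 5 genes, in bases from the transcription start (dashed line). MT2A and MT1H hold 8 cores each, MT1X 4, SLC30A1 2 and MTF1 0.

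The metallothioneins read lower on average in the STYK1 arrays for 6 of 7 genes, with a median difference of -0.24 log2 units, but none passed the test. The 2 arrays of a group often differed by more than the groups did. Over all named genes, too, the median replicate difference was larger in size than the median group difference. MTF1 read higher in both STYK1 arrays than in both control arrays, by 0.50, and did not pass either. SLC30A1 differed by -0.03. Over all named genes the median difference was 0.002.

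By limma, with p-values adjusted for all 53617 probe sets by the Benjamini-Hochberg method, 0 of the 9 measured genes had an adjusted p under 0.05, where 0.00187% of all probe sets did, a single probe set, that of STYK1. At an unadjusted p under 0.05 there were 2 of 9, MT1M on the lower and MTF1 on the higher side, where 4.64% of all probe sets passed, 1.91% lower and 2.73% higher. The groups did not overlap for 3 of the 9, which were MT1M and MT1X on the lower and MTF1 on the higher side. Over all probe sets 32.8% did not overlap, 15.4% lower and 17.4% higher in the STYK1 arrays, so the 3 of 9, or 33.3%, is near the background. With 2 arrays a group, an exact permutation test cannot give a p below 0.333, and none is given per gene. In RNA of a whole culture, fewer cells with a transcript and less transcript per cell cannot be told apart.

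**Figure D2:**
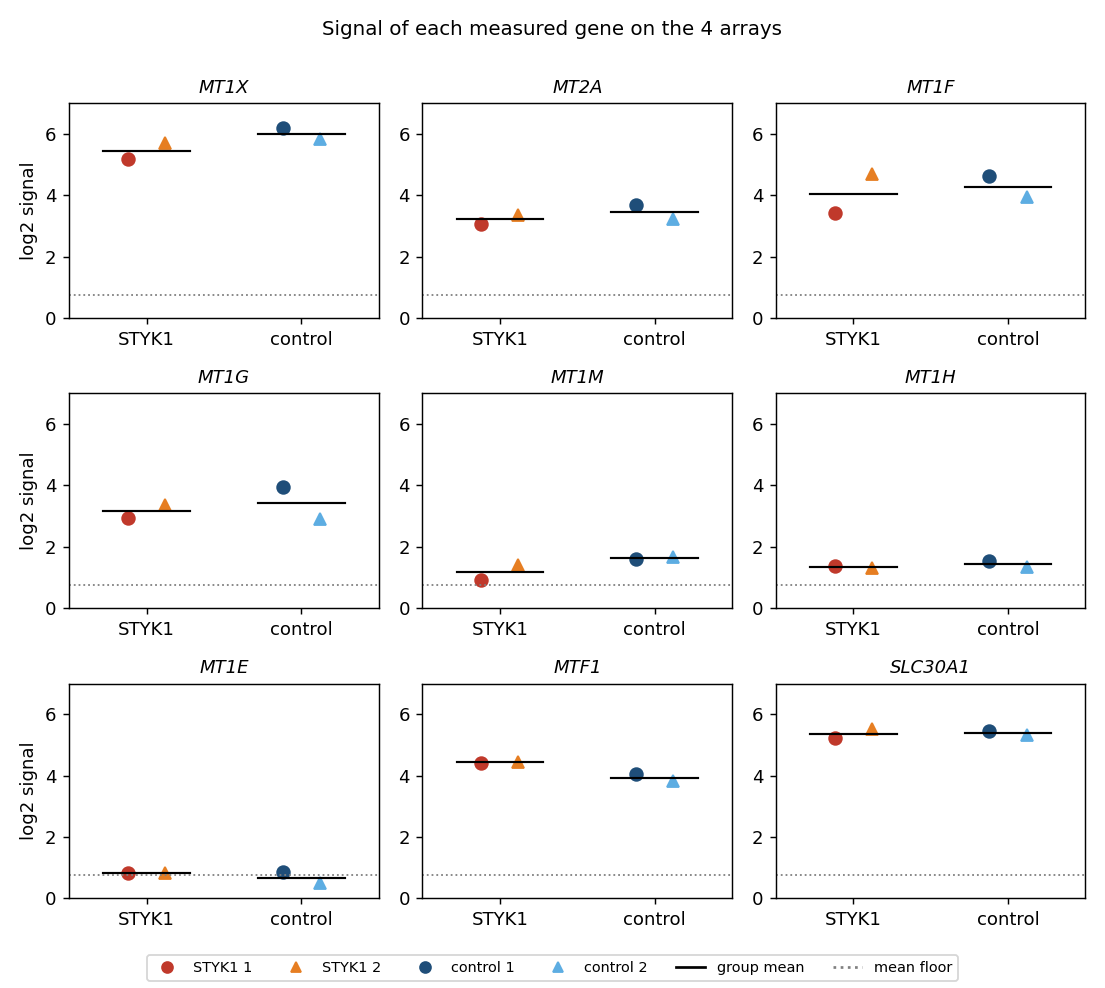
Log2 signal of the 9 measured genes on each array (circles replicate 1, triangles replicate 2, STYK1 at left and control at right), with the group mean as a bar and the mean floor of 0.76 as a dotted line. The groups overlap for all genes but MT1X, MT1M and MTF1, and MT1E lies at the floor.

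MT1X and MT2A are metallothioneins expressed in many tissues. MT1X had a signal of 5.19 and 5.72 in the STYK1 arrays, against 6.20 and 5.83 in the control arrays. Both STYK1 arrays lay below both controls, with STYK1 replicate 1 lowest, control replicate 1 highest and STYK1 replicate 2 closest to the controls. The means were 5.45 ± 0.37 in the STYK1 arrays and 6.01 ± 0.26 in the control arrays (SD, n = 2 each). This gave a difference of -0.56 ± 0.23 (standard error; 95% interval -1.16 to 0.03; adjusted p = 0.979 by limma), a signal 1.48-fold lower. MT2A had a signal of 3.07 and 3.37 in the STYK1 arrays, against 3.69 and 3.23 in the control arrays. The groups overlapped, with the second control below the second STYK1 array, and the difference was -0.24 ± 0.20 (standard error; adjusted p = 0.981 by limma).

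MT1F and MT1G, both metal-inducible members of the MT1 group, spread most between replicates. MT1F had a signal of 3.42 and 4.69 in the STYK1 arrays, against 4.63 and 3.94 in the control arrays. The lowest and the highest of its 4 values were thus both STYK1 arrays, 1.27 apart, while the means of the groups were 0.23 apart. The difference of -0.23 had a standard error of 0.48, and it turned to 0.41 without STYK1 replicate 1 and to 0.12 without control replicate 1. MT1G had a signal of 2.94 and 3.37 in the STYK1 arrays, against 3.96 and 2.92 in the control arrays. Here both the highest and the lowest value were controls, and STYK1 replicate 1 and control replicate 2 lay within 0.02 of each other. The difference of -0.28 had a standard error of 0.38 and turned to 0.24 without control replicate 1.

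MT1M, another zinc-binding member of the MT1 group, had a signal of 0.93 and 1.40 in the STYK1 arrays, against 1.60 and 1.68 in the control arrays. Both STYK1 arrays lay below both controls, and STYK1 replicate 1 came close to background. Background was judged by a floor per array, the level below which 95% of 462 probe sets for olfactory receptors lay, receptors that belong to the nose, and it ran from 0.75 to 0.77. The MT1M difference was -0.48 with a standard error of 0.18 (95% interval -0.94 to -0.02; limma, unadjusted p = 0.0441, adjusted p = 0.979). Without STYK1 replicate 1 it was -0.25, and without STYK1 replicate 2 it was -0.72.

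MT1H and MT1E, the remaining members of the MT1 group, were dim, as was MT1M. Over the 4 arrays MT1H averaged 1.39 and MT1M 1.40. MT1H had a signal of 1.38 and 1.32 in the STYK1 arrays, against 1.54 and 1.35 in the control arrays, and the groups overlapped with a difference of -0.10 (standard error 0.11). MT1E had a signal of 0.83 and 0.81 in the STYK1 arrays, against 0.84 and 0.50 in the control arrays. Its mean of 0.74 lay just under the mean floor of 0.76, so 6 of the 7 metallothioneins were above it. MT1E was the 1 metallothionein with a positive difference, 0.15 (standard error 0.14), which rests on control replicate 2 and turned to -0.02 without it.

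MTF1, the zinc-finger factor that binds the metal response elements, had a signal of 4.41 and 4.45 in the STYK1 arrays, against 4.04 and 3.81 in the control arrays. The STYK1 replicates lay 0.04 apart and both above the controls, with means of 4.43 ± 0.03 in the STYK1 arrays and 3.93 ± 0.16 in the control arrays (SD, n = 2 each). The difference was 0.50 with a standard error of 0.11 (95% interval 0.20 to 0.80; limma, unadjusted p = 0.00788, adjusted p = 0.979), a signal 1.41-fold higher. It stayed between 0.38 and 0.62 when each array was left out in turn, and none of these fits passed the adjusted threshold. Among the 11198 named genes above the floor, 98.7% differed by less than MTF1 in size, and 99.2% by less than MT1X. The share was 98.4% for MT1M, 91.0% for MT1G, 86.6% for MT2A, 84.8% for MT1F, 48.7% for MT1H and 14.2% for SLC30A1. This rank takes no account of the spread between replicates.

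The zinc exporter SLC30A1 had a signal of 5.24 and 5.50 in the STYK1 arrays, against 5.46 and 5.32 in the control arrays. The controls lay between the STYK1 arrays. The difference was -0.03 with a standard error of 0.13 and a 95% interval of -0.36 to 0.31. That interval is not adjusted for the number of probe sets, and it covers shifts in either direction. Its sign turned without STYK1 replicate 1 (0.11) and without control replicate 1 (0.05).

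**Figure D3:**
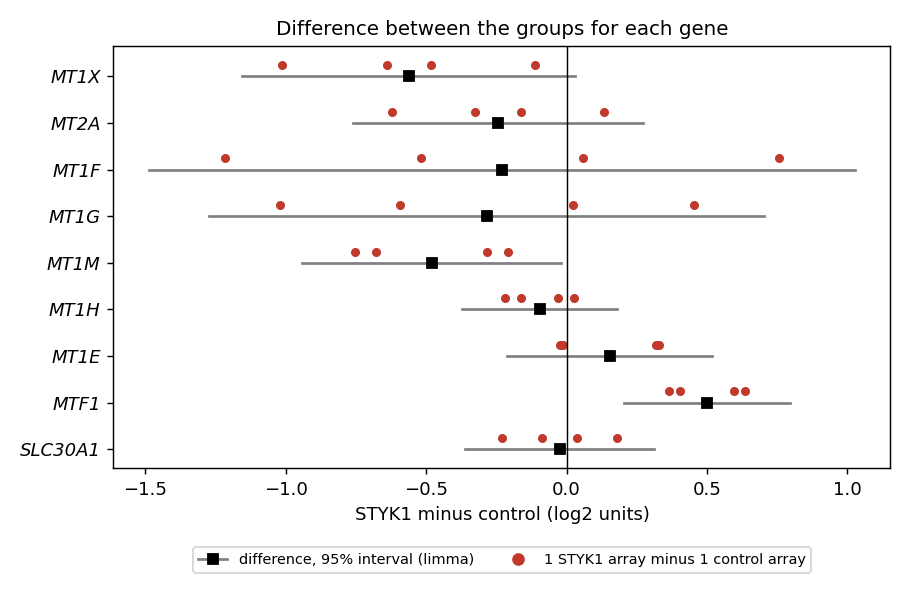
Difference between the groups, STYK1 minus control in log2 units, for each measured gene (black square, with the 95% interval of the limma fit as a grey line) and the 4 differences between 1 STYK1 and 1 control array (red circles). The 4 differences share a sign for MT1X, MT1M and MTF1, and those of MT1F run from -1.22 to 0.76.

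Most of the metallothioneins varied between replicates more than the bulk of the genes did. The residual standard deviation, the spread of the arrays around their group mean, had a median of 0.30 over the 6 metallothioneins above the floor, against 0.12 over the 11198 named genes above it. For MT1F it was 0.73, larger than for 99.8% of those genes, and for MT1G 0.57, larger than for 99.4%. MT1X, with 0.32, exceeded 94.8%, and MT2A, with 0.27, exceeded 90.7%. MT1M exceeded 85.9% and MT1H 38.2%. In MTF1 the spread was 0.12, larger than for 47.7%, and in SLC30A1 0.15, larger than for 62.7%.

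The array pattern was shared by most of the metallothioneins. STYK1 replicate 1 gave the lowest of the 4 values for 4 of 7 genes, and control replicate 1 gave the highest for 5 of 7. Replicate 2 read above replicate 1 in the STYK1 arrays for 5 of 7, and below it in the control arrays for 6 of 7. Centring every gene on its own 4-array mean and averaging the 7 genes gave deviations of -0.33 and 0.08 for STYK1 replicates 1 and 2, against 0.34 and -0.09 for control replicates 1 and 2. STYK1 replicate 2 thus lay above control replicate 2, and the list's groups overlapped. The difference between 2 arrays of a group exceeded that between the group means for 5 of 7 genes, all but MT1M and MT1X. The share of all named genes with that order was not counted. Over the 11198 named genes above the floor, the median replicate difference in size was 0.15 in the STYK1 and 0.14 in the control arrays. Their median group difference in size was 0.10. Leaving out STYK1 replicate 1 gave a median difference of -0.10, and leaving out STYK1 replicate 2 gave -0.50. Leaving out control replicate 1 gave -0.001, and leaving out control replicate 2 gave -0.47.

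**Figure D4:**
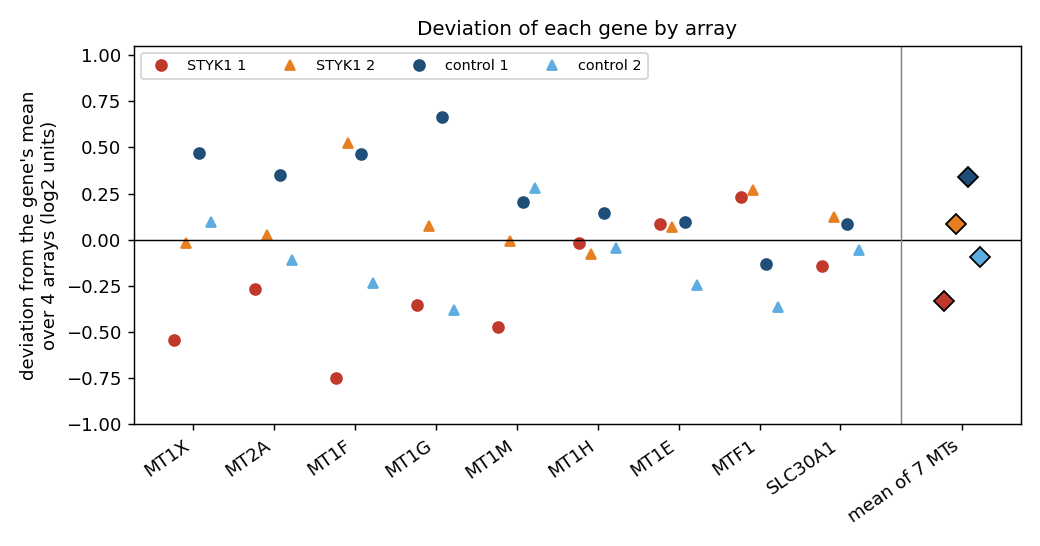
Deviation of each gene from its own mean over the 4 arrays, in log2 units (circles replicate 1, triangles replicate 2), with the mean over the 7 metallothioneins at the right as diamonds. STYK1 replicate 1 lies lowest in that mean, at -0.33, and control replicate 1 highest, at 0.34.

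Stress and growth genes differed between the same arrays. ATF4 target genes, induced when translation is curbed under stress, had mean deviations of 0.35 and -0.24 in STYK1 replicates 1 and 2, against -0.23 and 0.12 in control replicates 1 and 2, over 14 measured genes. Chaperones of the unfolded protein response had 0.34 and -0.21 in the STYK1 arrays, against -0.25 and 0.12 in the control arrays, over 11. Both lists were thus highest on the array where the metallothioneins were lowest. Genes of G1/S and DNA replication had -0.26 and 0.10 in the STYK1 arrays, against 0.13 and 0.03 in the control arrays, over 20. No gene of these 3 lists passed the test. Their part in the metallothionein values was not tested.

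As a list, the genes beside the cluster lay close to their own means on every array. Of the 10 protein-coding genes nearest to the cluster on each side in the RefSeq table, 19 of 20 were measured, 12 of them above the floor. Their mean deviation was 0.02 and -0.05 in the STYK1 arrays, against -0.01 and 0.04 in the control arrays, with a median difference of -0.01 between the groups. None passed, and the groups did not overlap for 3 of 19, or 15.8%, where all probe sets gave 32.8%. BBS2, a subunit of the BBSome of the primary cilium, had a signal of 2.70 and 1.87 in the STYK1 arrays, against 2.96 and 2.91 in the control arrays. The low value of STYK1 replicate 2 carried most of its difference of -0.65 (standard error 0.28; limma, adjusted p = 0.979). ARL2BP, a partner of the small GTPase ARL2, differed by -0.17. HERPUD1, a stress-induced protein of the endoplasmic reticulum, differed by 0.17 and its groups overlapped.

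Other metallothionein genes and pseudogenes were mostly at background. Of 15 listed, 9 were measured and 2 lay above the floor, the pseudogenes MT1CP and MT1P3. MT1CP read 2.14 and 1.98 in the STYK1 arrays, against 2.27 and 2.41 in the control arrays. Its groups did not overlap, with a difference of -0.28 (standard error 0.11; limma, adjusted p = 0.979). MT1P3 overlapped, at 2.00 and 2.42 in the STYK1 arrays, against 2.28 and 2.00 in the control arrays. MT3, the metallothionein of the brain, and MT4, that of stratified epithelia, lay under or near the floor on every array, between 0.52 and 0.76.

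The other zinc transporters differed little between the groups. Of the 9 SLC30 exporters besides SLC30A1, 7 differed upward and 2 downward, with a median of 0.02 and 6 above the floor. SLC30A10, a manganese exporter of the family, read 1.01 and 0.84 in the STYK1 arrays, against 0.59 and 0.87 in the control arrays. SLC30A9, a mitochondrial zinc transporter, differed by 0.11 and SLC30A5, which loads zinc into the secretory pathway, by 0.04. Of the 14 SLC39 importers, 11 differed upward and 3 downward, with a median of 0.05 and 11 above the floor. SLC39A13, a zinc transporter of intracellular vesicles, read 1.09 and 1.08 in the STYK1 arrays, against 0.75 and 1.00 in the control arrays, and SLC39A6 and SLC39A10, a pair of importers that can form a heteromer, differed by 0.20 and 0.10. No gene of either family passed the test or had an unadjusted p under 0.05, and the groups did not overlap for 1 exporter (11.1%) and 4 importers (28.6%), where all probe sets gave 32.8%.

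Factors known to act at metallothionein promoters with or beside MTF1 were listed together with KEAP1, which is not a promoter factor. All were measured, 11 of 11, with 8 differing upward, KEAP1 by 0.006, 3 downward and a median of 0.05. The groups did not overlap for 7 of the 11, 4 higher and 3 lower in the STYK1 arrays. That is 63.6% of the list, where all probe sets gave 32.8%, and none passed the adjusted test. ZNF658, counted among the lower ones, lay under the floor on every array. NR3C1, the glucocorticoid receptor, read 2.12 and 2.07 in the STYK1 arrays, against 1.78 and 1.74 in the control arrays, a difference of 0.33 (standard error 0.09; limma, unadjusted p = 0.0131, adjusted p = 0.979). USF1, a basic helix-loop-helix factor, lay below both controls on both STYK1 arrays, with a difference of -0.32. NFE2L2, the oxidant-sensing factor NRF2, differed by 0.30, with control replicate 1 lowest at 4.37.

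Responses that share inducers with the metallothioneins gave no gene past the threshold. Of the 10 measured glucocorticoid response genes 6 differed upward and 4 downward, with a median of 0.06. The groups overlapped for all 10, where 32.8% of all probe sets did not overlap. DUSP1, a phosphatase of MAP kinases, differed by 0.14, ERRFI1, an inhibitor of EGFR signalling, by 0.13 and the transcription factor KLF9 by -0.11. Of the 12 measured IL6 and STAT3 response genes 9 differed downward and 3 upward, with a median of -0.09, and 8 lay above the floor. The groups did not overlap for 5 lower and 1 higher, or 6 of the 12, where all probe sets gave 32.8%, 15.4% lower and 17.4% higher. CRP, LBP and SAA1, counted in the 6, lay under the floor on every array. That left IL6R, FGA and FGG, all lower. Among probe sets above the floor, 14.6% did not overlap on the lower and 18.6% on the higher side. IL6R, the receptor chain that binds IL6, read 2.57 and 2.70 in the STYK1 arrays, against 3.48 and 3.04 in the control arrays. Both STYK1 arrays lay below both controls, with a difference of -0.63 (limma, unadjusted p = 0.016, adjusted p = 0.979). HAMP, the iron hormone hepcidin, differed by -0.40 with overlapping groups, and FGA, the fibrinogen alpha chain, by -0.22. The list's mean deviation was -0.12 and -0.02 in the STYK1 arrays, against 0.14 and 0.01 in the control arrays, so its highest and lowest arrays were those of the metallothioneins. Of the 10 measured genes of the cadmium and oxidant response 8 differed upward and 2 downward, with a median of 0.07. HMOX1, heme oxygenase 1, differed by -0.31, the cystine transporter SLC7A11 by 0.29 and SRXN1, sulfiredoxin, by 0.13, each with overlapping groups. The mean deviation of this list was 0.074 and -0.031 in the STYK1 arrays, against -0.116 and 0.073 in the control arrays. For the glucocorticoid list it was 0.141 and -0.089, against -0.108 and 0.057. Both lists were thus highest on STYK1 replicate 1 and lowest on control replicate 1, the reverse of the metallothioneins.

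**Figure D5:**
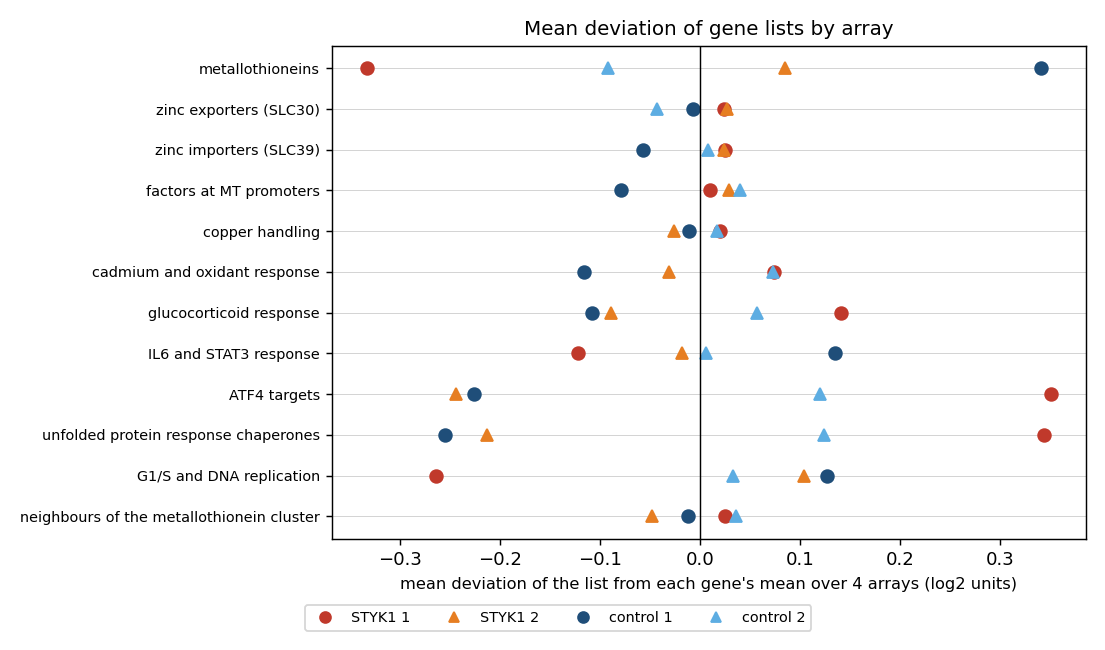
Mean deviation of each gene list on each array from the genes' own means over the 4 arrays, in log2 units (circles replicate 1, triangles replicate 2, red and orange STYK1, dark and light blue control). The metallothioneins span -0.33 to 0.34, and the zinc exporters, zinc importers, copper genes and cluster neighbours lie close to 0.

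The genes whose array pattern lay closest to the metallothionein mean, by Euclidean distance of the deviations over the 4 arrays and among 5760 named genes with a mean signal above 2, were MICB, MAGED1, DGKK, CENPB and IPO13, at distances of 0.03, 0.05, 0.07, 0.08 and 0.09. MICB, a stress-induced ligand of NKG2D, deviated by -0.36 and 0.10 in the STYK1 arrays, against 0.34 and -0.08 in the control arrays. With 4 arrays and 5760 genes a close match is a description, and none of the 5 passed the test, at differences of -0.23 to -0.29.

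The arrays as a whole were alike. Array medians lay between 0.615 and 0.629 and correlations between arrays, over all probe sets, between 0.985 and 0.987. All 9 measured hepatocyte and Huh7 markers were above the floor, with mean signals of 8.25 and 8.28 in the STYK1 arrays, against 8.22 and 8.26 in the control arrays. Albumin (ALB) read 10.60 in both STYK1 arrays, against 10.51 and 10.42 in the control arrays. Above the floor were 0 of 4 endothelial, 1 of 5 fibroblast, 2 of 6 immune and 3 of 5 cholangiocyte markers. The fibroblast marker, COL1A1, averaged 0.82 over the 4 arrays, close to the mean floor of 0.76. The immune markers were NKG7, at 0.92, and CD14, at 2.07. The cholangiocyte markers read higher, with KRT19 at 3.21, EPCAM at 6.16 and SOX9 at 6.56.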

How the data were processed

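Huh7 RNA was profiled on 4 arrays. The authors deposited 1 table with a log2 signal per probe set and array. Per the submitters' processing notes the software was Transcriptome Analysis Console; no source used here states its settings, the normalization or a genome build. The log base was inferred: read as natural logarithms, the largest value would stand for 84779, beyond the 65535 of a 16-bit scanner. Nothing more was done to the scale. The number of arrays limits precision (median standard error 0.11). The labels do not say that replicates were separate cultures, and p-values therefore reflect only how these samples spread, possibly for technical reasons. Values were exactly equal, to every digit deposited, at 171 and 242 probe sets within the STYK1 and control groups. Between arrays of different groups they were equal at 170 to 227. No array's values were thus a copy of another's, but the same RNA on separate arrays cannot be told from separate RNA this way.

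Groups followed the titles. The 53617 probe sets were named from the platform annotation, 23871 of them with 1 symbol, updated through RefSeq (GRCh38.p14); 1842 had several and 27904 none here. A gene was read from its probe set with the highest mean. limma 3.58.1 (R 4.3.3; group only, eBayes, two-sided, Benjamini-Hochberg over all probe sets, threshold 0.05) was checked on simulated data. It left 2 residual degrees of freedom and a prior of 2.71. The text names all members, up to 3 genes per list by size of the difference among those above the floor, and the 5 nearest patterns. Members and lists were chosen with earlier results of these data known. Alternatives covered the model, normalization, filter, probe set choice, a replicate block and leaving out arrays.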

Additional observations from a re-analysis of the deposited data

How the results depend on the processing

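No measured gene was called under any of the 12 alternatives. Outside the fits that leave out an array, the 71 differences kept their sign, with adjusted p-values of at least 0.958 (limma or the unmoderated model). Fits on 3 of the 4 arrays, which take the single array of the smaller group to vary as the other group does, turned 6 of 36 differences. The ranges were -0.0175 to 0.324 for MT1E, -0.87 to 0.41 for MT1F, -0.81 to 0.24 for MT1G and -0.16 to 0.11 for SLC30A1. The median of the metallothioneins ran from -0.50 to -0.001 in these fits, and it was -0.28 after quantile normalization and -0.26 over those above the floor, a set chosen after seeing the data. Of all probe sets 1 passed in the fit as reported and 0 without any 1 array (lowest 0, highest 0). The replicate numbers are shared by the groups, but the labels tie them to no shared culture or day, and the deviations of arrays with the same number had a correlation of -0.04 across all probe sets. A fit with a replicate block passed 0 probe sets and 0 of the 9 genes, with a metallothionein median of -0.24; that fit has fewer residual degrees of freedom. Averaging a gene's probe sets moved no value of these genes, since each has 1.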

Other observations

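Copper, which metallothioneins bind besides zinc, was covered by 14 listed genes of copper handling, of which 13 were measured and 11 lay above the floor. Of the 13, 6 differed upward and 7 downward, with a median of -0.001, and none passed the adjusted test. The groups did not overlap for 3 lower and 2 higher. That is 38.5% of the list, near the 32.8% of all probe sets. CCS, the chaperone that delivers copper to SOD1, read 3.38 and 3.41 in the STYK1 arrays, against 3.11 and 3.05 in the control arrays. Both STYK1 arrays lay above both controls, with a difference of 0.31 (standard error 0.09; limma, unadjusted p = 0.0173, adjusted p = 0.979). SOD1, the copper and zinc superoxide dismutase that CCS loads, read 6.85 and 7.23 in the STYK1 arrays, against 6.75 and 6.96 in the control arrays, and the groups overlapped. STEAP2, a metalloreductase, read 1.28 and 0.99 in the STYK1 arrays, against 1.47 and 1.30 in the control arrays, a difference of -0.25 with groups that did not overlap.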
